A study of Mus musculus with 2 samples.

Results

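Chamber endocardial cells line the inside of the atria and ventricles. Here they were taken from single-cell RNA profiles of mouse embryonic hearts by a rule, selected on the measured UMIs of the genes named next. A cell had to carry at least 4 of the 6 endothelial genes Pecam1, Cdh5, Egfl7, Kdr, Tek and Emcn, fewer than 8 Ttn transcripts per 10000, and a hemoglobin share under 20%. Cells with 2 or more UMIs of the vascular genes Fabp4 and Tcf15 were kept only where Npr3 was also present. The sum of Emcn, Plvap and Npr3 then had to be at least that of the cushion genes Klf2, Nfatc1 and Cyp26b1. A UMI is a molecular tag that counts 1 captured transcript, and every cell had at least 3000 UMIs, at least 500 genes and at most 20% mitochondrial UMIs. The rule found 1684 cells among 2134 endothelial cells, 13406 cells that passed the depth limits and 3084196 barcodes in all.

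The hearts came from embryos at stage E10.5, counted in days after conception. The library labelled wildtype holds BubR1+/+ hearts and the library labelled knockout holds BubR1fl/fl hearts, and both genotypes also carry 1 copy of Nkx2.5-cre, so the Cre recombinase itself is present on both sides. In each group 4 hearts were pooled into 1 library, after 3 hours on ice while the embryos were genotyped. BubR1 is the protein of Bub1b, and fl/fl means that both copies of the gene are flanked by sites that Cre can recombine. Nkx2.5 is a transcription factor gene of heart progenitors and cardiomyocytes. How many endocardial cells had been recombined is not stated in the labels, and Nkx2-5 itself gave only 11 and 10 UMIs in the chamber cells of the libraries labelled wildtype and knockout. With 1 library per group no test is possible. A difference below is therefore a difference between 2 libraries, and each interval is a 95% interval for counting error only.

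The endocardium is the endothelial layer of the heart tube. Over the chambers it sends neuregulin 1 and other signals to the muscle below, which forms trabeculae, the muscular ridges of the early ventricle. Over the atrioventricular canal and outflow tract it forms cushions, where some cells turn into mesenchyme and seed the valves. Blood flow, Notch, Bmp and Vegf signals are known to act on both kinds of endocardium. BubR1 is part of the spindle assembly checkpoint, which holds a dividing cell in mitosis until every chromosome is attached to the spindle.

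Chamber endocardial cells numbered 1013 in the library labelled wildtype and 671 in the library labelled knockout. They made up 77.1% (95% exact interval 74.7 to 79.3) and 81.8% (79.0 to 84.4) of the endothelial cells. Cushion endocardial cells, which met the same limits but had the larger cushion sum, numbered 176 and 143. Vascular endothelial cells, with at least 2 UMIs of Fabp4 and Tcf15 and none of Npr3, numbered 125 and 6, so levels in knockout-labelled vascular cells rest on 6 cells. Depth differed between the libraries. The median chamber cell had 7739 UMIs and 3101 genes in the library labelled wildtype and 12088 UMIs and 3904 genes in the library labelled knockout. Summed over the class this gave 9096868 and 10104209 UMIs. No barcode was shared between the chamber cells of the libraries.

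The libraries also differed in composition in ways that touch every comparison. A UMI of a Y-linked gene was found in 46.4% of wildtype-labelled and 0.149% of knockout-labelled chamber cells (1 cell), and Xist in 49.4% and 97.2%. In the erythroid cells of the same libraries the embryonic alpha globin Hba-x made up 7.98% and 29.6% of hemoglobin UMIs, and the adult beta globin Hbb-bs 9.10% and 0.217%. Embryonic globins give way to adult ones as red cells mature, so sex and stage cannot be told apart from genotype here. Ribosomal protein genes took 14.4% and 18.3% of chamber UMIs. Free RNA, judged from hemoglobin and the profile of barcodes with 10 to 100 UMIs, could make up at most 10.3% and 9.42%.

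All 4 markers given for chamber endocardium were higher in these cells than in cushion cells of both libraries, including 1 that the rule did not use. Npr3, the natriuretic peptide clearance receptor, Plvap, a diaphragm protein of endothelial pores, and Emcn, a surface sialomucin, chose the cells, so their levels are only a description. Npr3 stood at 778 CPM, its share of the class's UMIs scaled to a total of 1000000, in wildtype-labelled and 502 CPM in knockout-labelled chamber cells, against 189 and 141 CPM in cushion cells. Emcn stood at 780 and 590 CPM against 168 and 110 CPM, and Plvap at 382 and 279 CPM against 139 and 118 CPM. The fourth marker, Adgrg6, an adhesion G protein-coupled receptor, was not part of the rule. It lies on chromosome 10 (mm10, 14402583 to 14545659) and stood at 605 and 435 CPM in chamber cells, 153 and 100 CPM in cushion cells. When each cell was thinned to 3000 UMIs, Adgrg6 was seen in 71.2% and 60.5% of chamber cells, 29.0% and 19.6% of cushion cells, and 4.6% and 1.5% of erythroid cells, which should lack it. Without thinning the chamber shares were 84.9% and 84.5%. The plot of the sums that the rule compares shows where the cells fall.

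**Figure D1:**
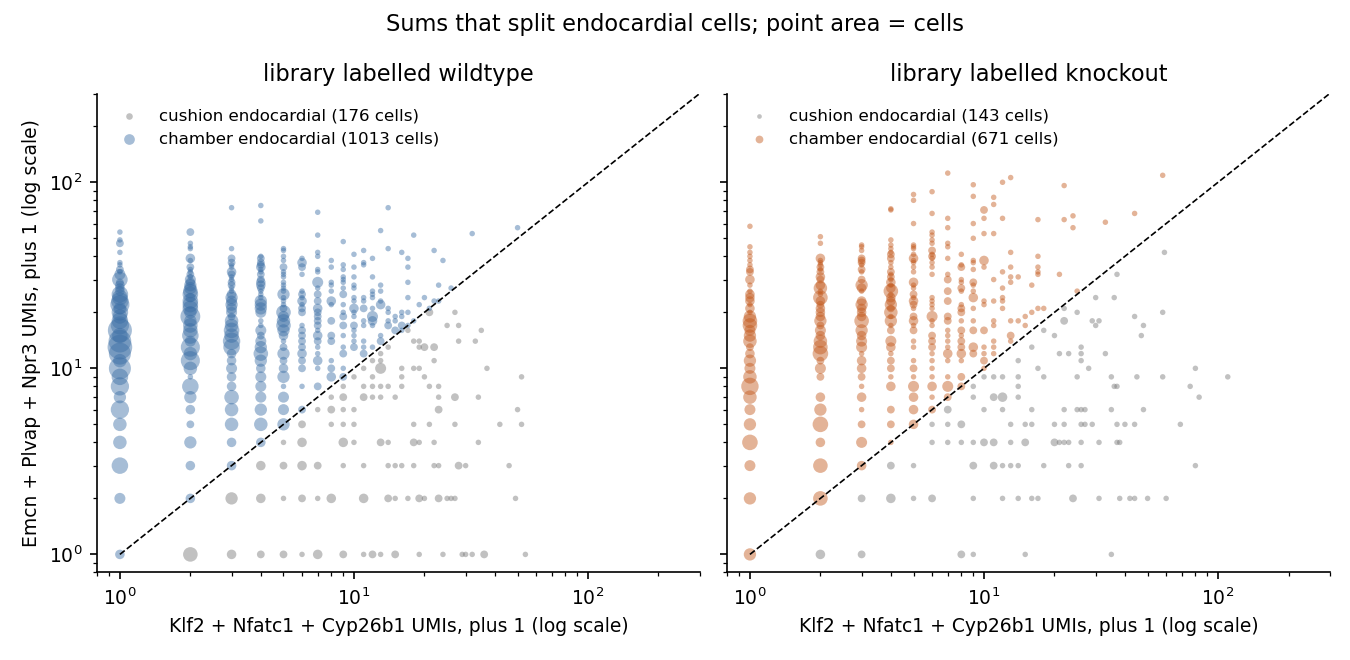
UMIs of Emcn, Plvap and Npr3 (y axis, log scale, 1 added) against UMIs of Klf2, Nfatc1 and Cyp26b1 (x axis, log scale, 1 added) in each endocardial cell, by library; point area shows the number of cells, and the dashed line marks equal sums. Most chamber cells (660 wildtype-labelled, 436 knockout-labelled) lie at least 10 UMIs above the line, and 26 cells in each library lie on it.

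Few cells sat on or next to the line of equal sums, while more sat at the lower limit of endothelial genes. On the line, where both sums were equal, were 26 cells in each library, with median sums of 4 UMIs in the library labelled wildtype and 2 in the library labelled knockout. Just inside it, 37 and 33 cells had a surplus of 1 UMI. Just outside, 29 and 13 cells lacked 1 UMI and went to the cushion class. Exactly 4 of the endothelial genes were present in 127 and 90 chamber cells, and all 6 in 542 and 425. A further 111 and 209 barcodes had 3 of them and stayed out. Npr3 was at 0 in 69 and 64 members. Members with 2 or more UMIs of Fabp4 and Tcf15, kept because Npr3 was present, numbered 86 and 11. Thinning to 3000 UMIs before the rule gave 766 and 340 chamber cells, or 75.6% and 50.7% of the numbers found without it.

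Genes that the rule did not use also marked the class against cushion and vascular cells. Col23a1, a transmembrane collagen, stood at 617 and 366 CPM in chamber cells of the libraries labelled wildtype and knockout, against 187 and 70.0 CPM in cushion cells. Pcdh7, a protocadherin, stood at 956 and 602 CPM against 242 and 190 CPM. Slc22a23, a member of the organic ion transporter family, stood at 344 and 198 CPM against 82.2 and 35.9 CPM. For each of these the chamber level lay above the cushion level in both libraries. Dlk1, an imprinted gene for a Notch-family membrane protein, stood at 140 and 78.5 CPM against 19.5 and 12.7 CPM, and Ccdc3, a secreted endothelial protein, at 97.1 and 17.8 CPM against 5.39 and 1.75 CPM. Pla2g7, St8sia1, Hunk, Smoc1, Tec and Ntm complete the 12 genes with the highest ratio over both other endothelial classes. Of these 12, Adgrg6 included, Hunk, a protein kinase, was the only one whose level was higher in the library labelled knockout, at 81.0 and 93.8 CPM.

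**Figure D2:**
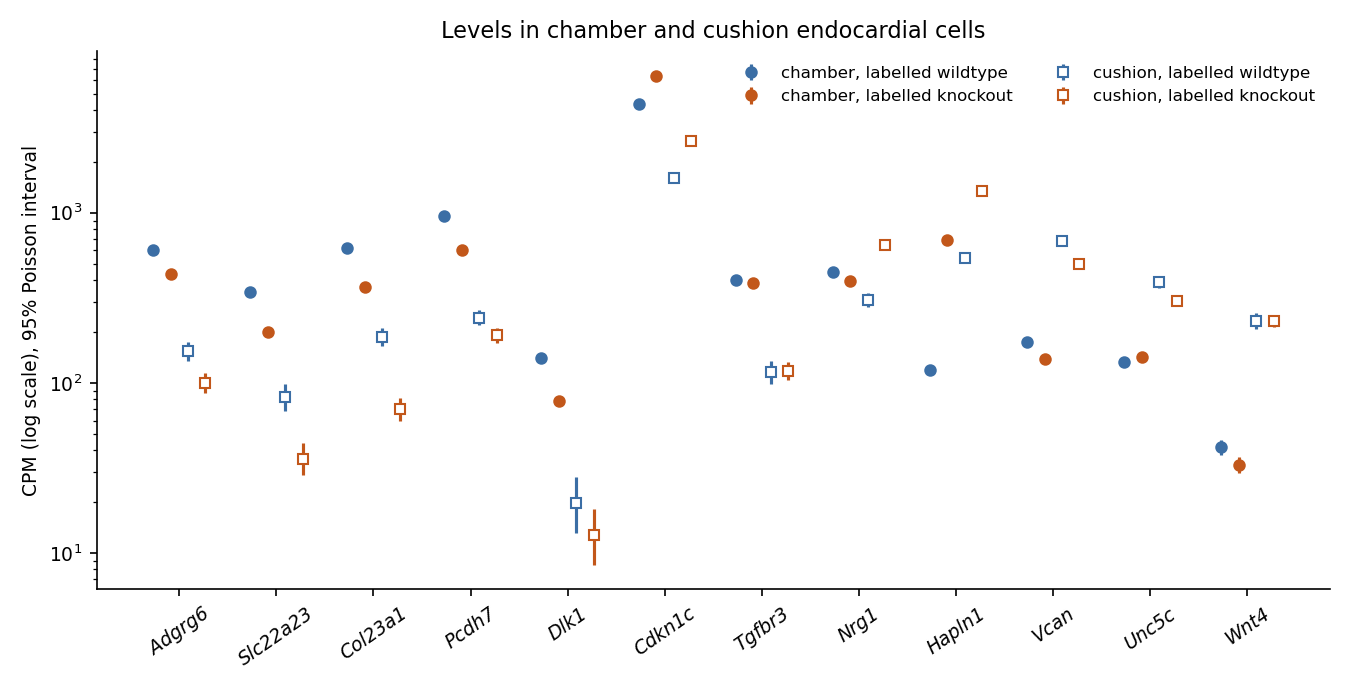
Level in CPM (y axis, log scale, 95% Poisson interval) of 12 genes (x axis) in chamber (filled) and cushion (open) endocardial cells of each library. Adgrg6, Slc22a23, Col23a1, Pcdh7, Dlk1, Cdkn1c and Tgfbr3 lie higher in chamber cells of both libraries, Vcan, Unc5c and Wnt4 lie higher in cushion cells, and Nrg1 lies higher in chamber cells only in the library labelled wildtype (449 against 309 CPM).

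Among chamber cells, the levels of several genes rose or fell with Adgrg6. Adgrg6 was taken as an anchor after its values were seen, and Pearson's r was computed across the 1013 and 671 cells of each library over 3253 genes, on values scaled per cell. All cells of a library share its preparation, so r is a description. The genes most like Adgrg6 were Slc22a23 (r = 0.53 in the library labelled wildtype and 0.54 in the library labelled knockout), Cdkn1c (0.52 and 0.57), Pcdh7 (0.52 and 0.52), Tgfbr3 (0.51 and 0.55) and Col23a1 (0.49 and 0.57). Cdkn1c is an imprinted inhibitor of cell division and Tgfbr3 a co-receptor of Tgfb. In the library labelled wildtype, Cdkn1c stood at 2736, 5294 and 5387 CPM in the cells with the lowest, middle and highest levels of Adgrg6. In the library labelled knockout the values were 3250, 7401 and 8555 CPM. Vcan, a hyaluronan-binding proteoglycan of the cushion matrix, ran the other way, at 311, 127 and 60.2 CPM and at 275, 82.1 and 58.1 CPM. Unc5c, a netrin receptor, went from 247 to 56.9 CPM and from 236 to 99.4 CPM between the lowest and highest groups. Median depth was similar across the groups (7817, 8089.5 and 7132 UMIs labelled wildtype; 11269, 12911 and 12103 labelled knockout). Vcan and Unc5c, which stand higher in cushion cells, were picked from several genes that ran this way. Ranked by the r nearer to 0 of the libraries, Fkbp1a (−0.30 and −0.29) and Limch1 (−0.44 and −0.27) came before Vcan (−0.34 and −0.26). Whether the members with little Adgrg6 are closer to cushion cells was not tested.

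The low-Adgrg6 group also held most of the platelet factor gene Pf4, at 233 against 10.6 CPM in the highest group of the library labelled wildtype, and 486 against 18.1 CPM labelled knockout. In the whole class 91.7% and 95.2% of Pf4 UMIs sat in 10 cells.

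Nrg1, the gene for neuregulin 1, followed a partly different set. Its nearest genes were Mcc (r = 0.55 and 0.44), Pcdh7 (0.44 and 0.47), Epha7 (0.42 and 0.42) and Cdh11 (0.43 and 0.36), where Epha7 is an ephrin receptor and Cdh11 a cadherin. Epha7 stood at 193, 260 and 649 CPM in wildtype-labelled cells with the lowest, middle and highest levels of Nrg1, and at 85.8, 148 and 413 CPM in knockout-labelled cells. Ranked by the r nearer to 0 of the libraries, Igfbp5, a binding protein of insulin-like growth factors, came lowest (−0.43 and −0.26). In the library labelled knockout alone Mif was lower (−0.34, and −0.20 labelled wildtype). The levels of Igfbp5 were 1500, 1047 and 418 CPM, and 356, 333 and 168 CPM.

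In chamber cells, 10662 genes had at least 100 UMIs over both libraries. A gene is called higher or lower below where its CPM in the library labelled knockout was past 1.5-fold of that in the library labelled wildtype. This background held 703 genes called higher, or 6.59%, and 1401 called lower, or 13.1%, which is 19.7% in either direction. Past 2-fold, 1.65% were higher and 4.89% lower, or 6.54% in either direction. The median gene stood at −0.10 on the log2 scale. Measured from that median, 975 were higher and 1093 lower, which moves the higher share of all calls from 33.4% to 47.1%. Log2 ratios below are labelled knockout over labelled wildtype. The gene lists group 245 called genes by role. Without cells that held 3 or more UMIs of epicardial, macrophage or megakaryocyte markers, 210 of these stayed past 1.5-fold the same way. Another 25 kept their direction under it, 8 turned and 2 gave no value. Fewer stayed without cells of 5 or more UMIs of another class's markers. There 230 gave a value, of which 166 stayed, 47 kept their direction under 1.5-fold and 17 turned, 10 of them past 1.5-fold. With cells thinned to 3000 UMIs before the rule, 193 stayed, 43 kept their direction under 1.5-fold and 7 turned. Under the other settings tried, from 210 to 242 stayed, the most with a mitochondrial limit of 10%. The plot of gene lists shows the spread.

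**Figure D3:**
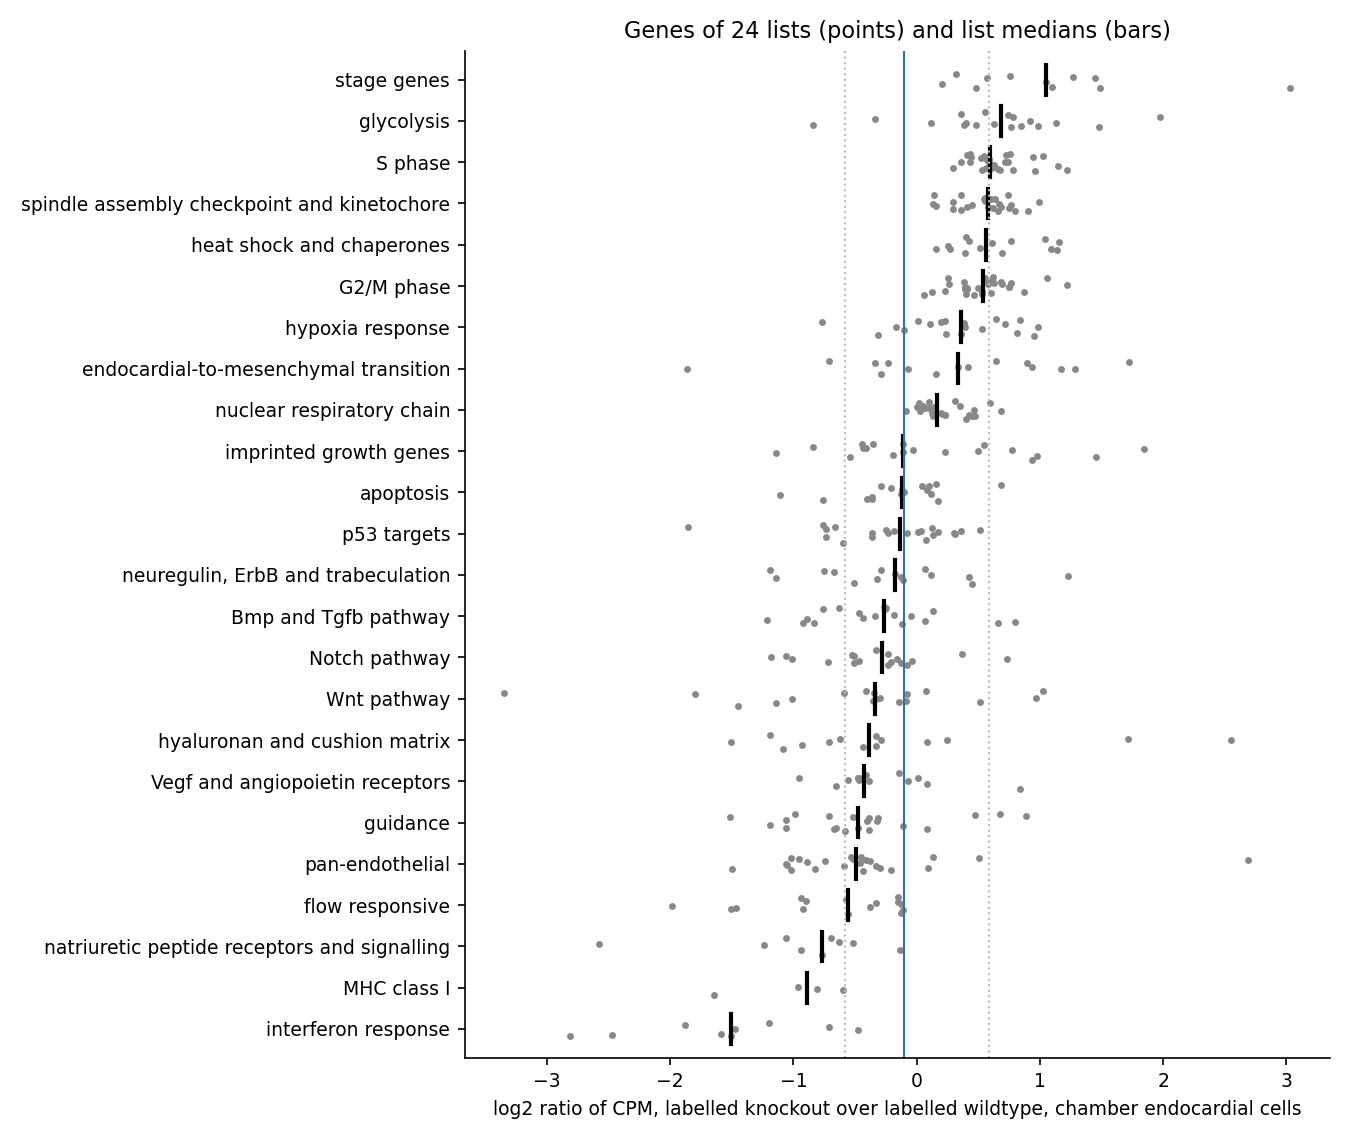
Log2 ratio of CPM, labelled knockout over labelled wildtype, in chamber endocardial cells (x axis) for the measured genes (points) of 24 lists (rows), with the median of each list (bars). Dotted lines mark 1.5-fold, and the blue line the median of all genes at −0.10; list medians run from 1.05 for stage genes to −1.50 for interferon response.

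Bub1b, the targeted gene, did not check the labels. It lies on chromosome 2 (mm10, 118598211 to 118641591) and gave 238 UMIs (26.2 CPM, 22.9 to 29.7) in wildtype-labelled and 362 UMIs (35.8 CPM, 32.2 to 39.7) in knockout-labelled chamber cells. The log2 ratio was 0.45 (0.21 to 0.70), under the 1.5-fold limit and with the higher level in the library labelled knockout. With cells thinned to 3000 UMIs before the rule, which leaves 766 and 340 cells, it was −0.08. In the chamber cells as chosen, thinned, Bub1b was seen in 6.32% and 8.05%, beside 2.36% and 8.92% of erythroid cells. A 3' tag can lie outside a deleted exon, and the labels do not say which exons are flanked, so these counts cannot tell how many cells had lost the protein. In cushion cells Bub1b stood at 20.9 and 35.4 CPM.

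Of 25 genes of the spindle assembly checkpoint and kinetochore, Bub1b not included, 12 were called higher and 0 lower, with a median log2 ratio of 0.58. Bub1, a checkpoint kinase, stood at 30.3 and 48.8 CPM (0.69, 0.47 to 0.90). Sgo1, which protects cohesion between sister chromatids, stood at 16.8 and 33.5 CPM (0.99, 0.71 to 1.28). Birc5, a subunit of the chromosomal passenger complex, stood at 110 and 188 CPM (0.77, 0.66 to 0.88). The partner genes Bub3, at 105 and 139 CPM, and Mad1l1, at 39.9 and 51.1 CPM, stayed under 1.5-fold.

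Among 30 G2/M genes 12 were called higher and 0 lower (median 0.54), and among 30 S phase genes 17 were higher and 0 lower (median 0.59). Ccnb1, cyclin B1, stood at 30.9 and 72.0 CPM (1.22, 1.02 to 1.42) and Ube2c, which helps destroy it at the end of mitosis, at 136 and 282 CPM (1.06, 0.96 to 1.15). Rrm2, a subunit of the enzyme that makes deoxynucleotides, stood at 38.0 and 84.4 CPM (1.15, 0.97 to 1.33). Mki67, at 113 and 135 CPM, stayed under 1.5-fold. In cells thinned to 3000 UMIs, at least 3 UMIs of the S phase list were present in 45.6% (42.5 to 48.7) of wildtype-labelled and 76.2% (72.7 to 79.3) of knockout-labelled chamber cells. For 10 or more UMIs of the G2/M list the shares were 14.8% and 29.7%. Cushion cells showed similar steps, from 36.9% to 72.7% and from 15.9% to 32.2%, so a higher level of cycle genes was seen in both endocardial classes.

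**Figure D4:**
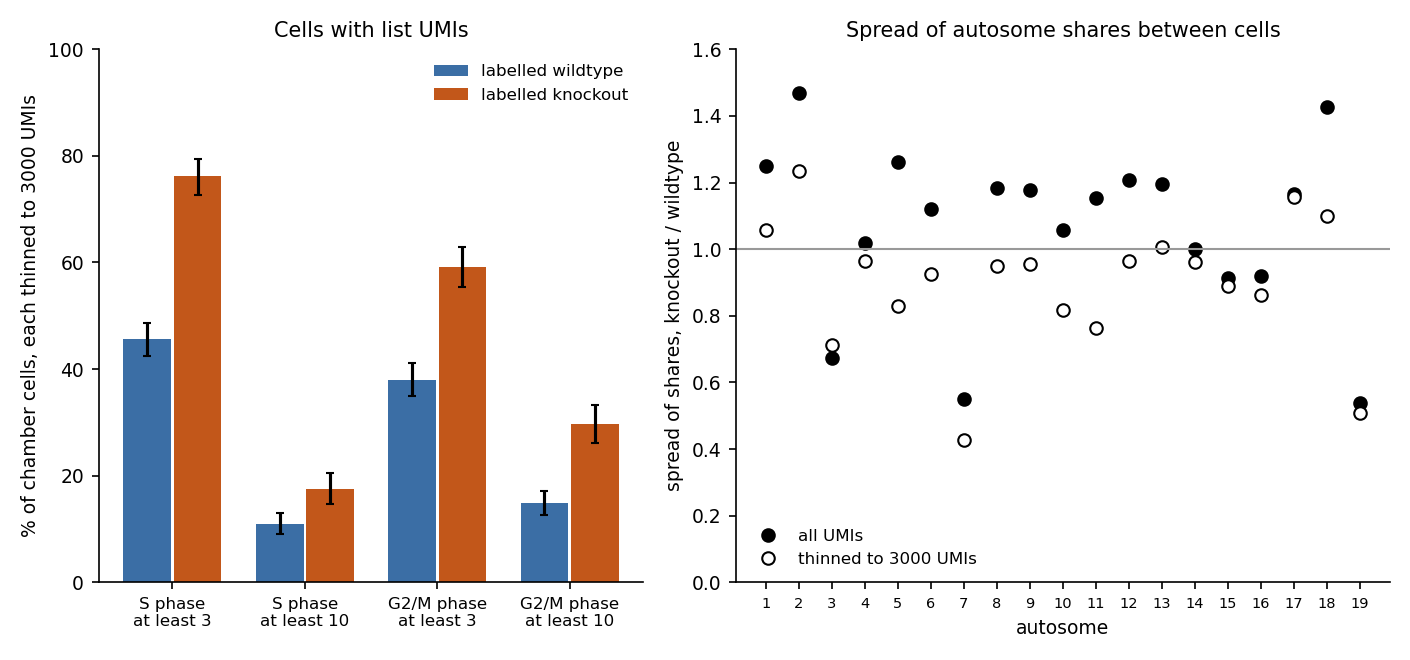
Left, percent of chamber cells (y axis), each thinned to 3000 UMIs, with at least 3 or 10 UMIs of the S and G2/M lists, with 95% Clopper-Pearson intervals; right, the spread between cells of each autosome's share of UMIs, labelled knockout over labelled wildtype (y axis), for the 19 autosomes, with all UMIs (filled) and thinned (open). The S phase share at 3 UMIs is 45.6% and 76.2%, and the filled points lie above 1 for 14 of 19 autosomes, the open points for 5.

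Targets of p53, which rise after DNA damage and other stress, were not called higher. Of 22 measured, 0 were higher and 6 lower (27.3%), with a median of −0.13. Over all genes 6.59% were higher and 13.1% lower, with a median of −0.10, so the absence of higher calls lies near the share of all genes. Cdkn1a, the p53 target that stops the cell cycle, stood at 6.60 and 8.12 CPM (0.30, −0.20 to 0.80), and Mdm2, the ubiquitin ligase that limits p53, at 35.2 and 37.0 CPM (0.07, −0.15 to 0.29). Both intervals include 0. Plk2, a polo-like kinase, was lower at 142 and 85.0 CPM (−0.74), as was Phlda3, an inhibitor of Akt, at 44.1 and 26.4 CPM (−0.74). Among 17 apoptosis genes 1 was higher and 2 were lower, shares near those of all genes. Bax, an effector of membrane leakage, stood at 145 and 163 CPM, while Bik, a pro-apoptotic relative of Bcl2, was lower at 74.8 and 34.7 CPM (−1.11).

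Cells that gain or lose chromosomes would differ from each other in the share of transcripts from each chromosome, so the spread of these shares was measured over the binomial spread. The median over 19 autosomes was 3.11 in wildtype-labelled and 3.76 in knockout-labelled chamber cells. The median ratio between libraries was 1.15, ranging from 0.539 to 1.47, and 14 of 19 autosomes were above 1. Deeper cells give a larger value at the same true spread, and after thinning to 3000 UMIs the median ratio was 0.95, ranging from 0.429 to 1.23, with 5 of 19 above 1. Without the 5 genes with most UMIs on each autosome, 18 of 19 were above 1 in chamber cells with all UMIs, and 8 of 19 in thinned ones. In thinned cushion cells 9 of 19 were above 1, and 12 of 19 without those 5 genes. The direction differed between these settings, and whether the libraries differ in chromosome number was not tested.

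Of 24 genes shared by endothelial cells, 10 were called lower, 1 higher and 13 neither, with a median of −0.49. Clec14a, a surface lectin of endothelium, stood at 130 and 46.0 CPM (−1.50, −1.66 to −1.34). Tie1, a receptor that modulates angiopoietin signals, stood at 219 and 113 CPM (−0.96, −1.06 to −0.85). Mmrn2, a matrix partner of Clec14a, stood at 174 and 85.7 CPM, and Cd93, another of its partners, at 324 and 175 CPM. The exception was Etv2, a transcription factor of the earliest endothelial progenitors. It rose from 25 UMIs in 18 cells to 179 UMIs in 108 cells, or from 2.75 to 17.7 CPM (2.69, 2.08 to 3.35). In cushion cells Etv2 stood at 4.04 and 11.8 CPM, and the pan-endothelial median of 22 genes was −0.74 beside −0.49 in chamber cells.

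Of 14 genes of Vegf and angiopoietin signalling, 2 were lower and 1 higher, shares near those of all genes, with a median of −0.43. The decoy receptor Flt1 stood at 461 and 346 CPM (−0.41), the co-receptor Nrp1 at 538 and 387 CPM (−0.47), and Vegfc, a ligand, at 78.0 and 82.8 CPM (0.09), all under 1.5-fold. Kdr, the main Vegf receptor, which the rule uses, stood at 226 and 215 CPM.

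Among 15 genes listed as chamber endocardial markers 5 were lower and 2 higher (median −0.45). Npr3, which chose the cells, is 1 of the 5, and Emcn, Plvap and Tek, also used by the rule, enter the median. The 2 higher were Gata5 and Hapln1, but Hapln1 stood higher in cushion cells (540 and 1336 CPM) than in chamber cells (118 and 694 CPM). Cdh11, a cadherin, stood at 1132 and 592 CPM (−0.93) and Foxc1, a forkhead factor, at 117 and 67.1 CPM (−0.81). Cytl1, a secreted cytokine-like protein, dropped from 21.4 to 1.48 CPM (−3.85, −4.72 to −3.09). Gata5, a zinc finger factor of endocardium, was higher at 26.4 and 50.4 CPM (0.93). Tmem100, a target of Alk1 signalling, and Vwf stayed under 1.5-fold.

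Neuregulin 1 itself changed little in chamber cells. Nrg1 stood at 449 and 397 CPM (−0.18, −0.24 to −0.12) and was present in 44.2% and 45.8% of thinned chamber cells, beside 3.0% and 1.1% of erythroid cells. In cushion cells its level was 309 and 642 CPM and its share 26.1% and 49.7%. Among 15 genes of neuregulin signalling and trabeculation 4 were lower (26.7%, beside 13.1% of all genes) and 1 higher (6.67%, near the 6.59% of all genes). The growth factors Igf2, at 1561 and 709 CPM (−1.14), and Igf1, at 285 and 169 CPM (−0.76), were lower, as was Adamts1, a protease of the matrix between endocardium and muscle, at 119 and 52.4 CPM (−1.19). Efnb2 and Edn1, both ligands from endocardium, stood at 158 and 147 CPM and at 45.8 and 42.1 CPM, under 1.5-fold. Erbb4, a neuregulin receptor known from muscle, was called higher at 80.2 and 188 CPM, but 66.6% and 90.1% of its UMIs lay in cells with 5 or more epicardial UMIs, and without cells of 3 or more such UMIs its ratio was −0.39.

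Of 18 Notch genes 4 were lower (22.2%, beside 13.1% of all genes) and 1 higher (5.56%, near the 6.59% of all genes). The receptor Notch1 stood at 166 and 143 CPM (−0.21) and the ligand Dll4 at 16.6 and 14.2 CPM (−0.23), both under 1.5-fold. The ligands Dll1 and Jag1 were lower, at 28.3 and 13.6 CPM (−1.06) and at 21.3 and 10.6 CPM (−1.01), as was Adam10, the protease that cuts the receptor, at 273 and 166 CPM (−0.72). The target Hey1 was higher at 11.8 and 19.6 CPM (0.74, 0.39 to 1.09), and Hey2 stood at 9.12 and 11.8 CPM with an interval that includes 0.

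Bmp and Tgfb ligands and receptors gave 6 lower and 2 higher of 19 (median −0.27). Tgfbr2, the type II Tgfb receptor, stood at 156 and 82.1 CPM (−0.92), the ligand Tgfb2 at 138 and 81.5 CPM (−0.76) and the ligand Bmp4 at 22.1 and 9.50 CPM (−1.22). In cushion cells Tgfb2 stood at 111 and 147 CPM. The target Id1 stood at 215 and 239 CPM, Id3 at 579 and 550 CPM and the feedback inhibitor Smad6 at 148 and 196 CPM, all under 1.5-fold. Of 8 Bmp targets 2 were higher and 0 lower, with a median of 0.04.

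For Wnt, 6 of 18 were lower and 2 higher (33.3% and 11.1%, beside 13.1% and 6.59% of all genes). Dkk2, a secreted Wnt inhibitor, dropped from 18.1 to 1.78 CPM (−3.35, −4.14 to −2.64), and Fzd6, a receptor, from 26.8 to 7.72 CPM (−1.80). Wnt5a, a ligand, rose from 16.4 to 32.1 CPM (0.97).

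Of 15 flow-responsive genes 6 were lower and 0 higher, with a median of −0.56. Klf2, a cushion gene that the rule uses, is 1 of these 6, so its value was in part set by the choice of cells. Thbd, thrombomodulin, stood at 18.8 and 4.75 CPM (−1.98, −2.48 to −1.51), Klf4, a flow-induced transcription factor, at 21.9 and 7.92 CPM (−1.47), and Nos3, the endothelial nitric oxide synthase, at 135 and 70.6 CPM (−0.94). Heg1 and Piezo1, a junction receptor and a mechanosensitive channel, stood at 258 and 174 CPM and at 127 and 86.2 CPM, just under 1.5-fold. Downstream of nitric oxide and natriuretic peptides, 7 of 9 genes were lower and 0 higher, Npr3 from the rule and Nos3 among them. Both subunits of the nitric oxide receptor were lower, Gucy1a1 at 75.7 and 44.5 CPM (−0.77) and Gucy1b1 at 110 and 52.8 CPM (−1.06). Prkg1, the kinase that cyclic GMP activates, stood at 1337 and 827 CPM (−0.69). Pde3a, a phosphodiesterase that cyclic GMP inhibits, dropped from 294 to 49.1 CPM (−2.58, −2.72 to −2.44), and from 154 to 41.6 CPM in cushion cells.

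Of 15 regulators of the change from endocardium to mesenchyme, 6 were higher and 2 lower (median 0.34). Tbx20, a T-box factor, stood at 118 and 220 CPM (0.90, 0.79 to 1.00) and was seen in 15.1% and 30.7% of thinned cells, beside 9.31% and 2.32% of erythroid cells. Gata4 stood at 228 and 288 CPM, Gata6 at 171 and 191 CPM and Zeb2 at 386 and 316 CPM, under 1.5-fold. Postn, a matrix protein of cushion mesenchyme, dropped from 156 to 42.9 CPM (−1.86), and Foxp1, a forkhead factor, from 787 to 481 CPM (−0.71). Sox9, a factor of valve mesenchyme and epicardium, was higher at 11.5 and 38.2 CPM (1.73), with 54.3% and 67.6% of its UMIs in cells with 5 or more epicardial UMIs. The list median was −0.15 without cells that held 5 or more UMIs of markers of another class, which leaves 289 and 104 cells.

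Hapln1, which links hyaluronan to proteoglycans, lies on chromosome 13 (mm10, 89539796 to 89611652) and had 1075 UMIs in 366 cells of the library labelled wildtype and 7011 UMIs in 637 cells of the library labelled knockout. That is 118 and 694 CPM (2.55, 2.46 to 2.65), or 20.8% and 73.5% of thinned cells, beside 2.7% and 4.5% of erythroid cells. In cushion cells Hapln1 stood at 540 and 1336 CPM, so the knockout-labelled chamber level lay above the wildtype-labelled cushion level. Has2, the enzyme that makes hyaluronan, rose from 3.96 to 13.0 CPM (1.71), while Vcan stood at 174 and 139 CPM and Fn1, fibronectin, at 1433 and 1518 CPM, both under 1.5-fold. Of 14 genes of this matrix 6 were lower, among them Fbln2, a fibulin, at 139 and 72.9 CPM (−0.93). Of 14 basement membrane genes 4 were lower and 2 higher (28.6% and 14.3%, beside 13.1% and 6.59% of all genes). Lama4, a laminin chain of vessel walls, stood at 234 and 126 CPM (−0.89), and the collagen IV genes Col4a1 and Col4a2 stood at 610 and 535 CPM and at 334 and 292 CPM.

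Of 20 junction and adhesion genes 8 were lower and 4 higher. Cdh5 and Pecam1, which the rule uses, are 2 of these 8. Itga6, a laminin receptor, stood at 343 and 168 CPM (−1.03), Jam2, a junction protein, at 30.3 and 9.01 CPM (−1.75), and Itga1, a collagen receptor, was higher at 82.7 and 160 CPM (0.95). Of 15 genes of caveolae, pores and scavenging 7 were lower and 3 higher. Cav1, the coat protein of caveolae, dropped from 126 to 16.1 CPM (−2.97, −3.21 to −2.73) and from 26.4% to 3.9% of thinned cells, beside 2.09% and 0.0858% of erythroid cells. Its partners Cav2, at 36.9 and 14.1 CPM (−1.39), Cavin1, at 68.0 and 34.8 CPM (−0.97), and Cavin2, at 730 and 354 CPM (−1.04), were lower too. Tfrc, the transferrin receptor, rose from 6.60 to 18.2 CPM (1.47). Of 21 guidance genes 8 were lower and 2 higher (38.1% and 9.52%, beside 13.1% and 6.59% of all genes). Among them were Sema6a at 151 and 52.9 CPM (−1.52), Sema3a at 208 and 99.5 CPM (−1.06) and the netrin receptor Unc5b at 14.7 and 27.2 CPM (0.89). Ednrb, an endothelin receptor, stood at 658 and 251 CPM (−1.39) and Nr2f2, a factor of venous and atrial identity, at 360 and 187 CPM (−0.95).

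Of 18 glycolysis genes 10 were higher and 1 lower (median 0.68). Hk2, the first enzyme of the pathway, stood at 8.46 and 33.3 CPM (1.97, 1.61 to 2.35), the glucose carriers Slc2a3 and Slc2a1 at 13.0 and 36.2 CPM (1.48) and at 22.3 and 44.0 CPM (0.98), and Pgk1 at 173 and 312 CPM (0.85). The 26 nuclear genes of the respiratory chain had a median of 0.17, with 2 higher (7.69%, near the 6.59% of all genes) and 0 lower. Hypoxia-response genes gave 6 higher and 1 lower of 19. Of 14 chaperones 7 were higher and 0 lower. Hsp90aa1 stood at 540 and 1113 CPM (1.04), and the mitochondrial pair Hspd1 and Hspe1 at 210 and 447 CPM (1.09) and at 298 and 654 CPM (1.14). Cushion cells gave medians of 0.78 for glycolysis and 0.43 for chaperones. The labels give the same time on ice for embryos of both groups. What part handling had in the levels of these lists was not tested.

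Of 11 genes known to mark earlier stages 7 were higher and 0 lower (median 1.05). Hmga2, a chromatin protein of early tissues, stood at 106 and 289 CPM (1.45, 1.34 to 1.55) and was seen in 18.8% and 50.7% of thinned cells, beside 4.91% and 3.43% of erythroid cells. Igf2bp1, an RNA-binding protein, stood at 98.9 and 167 CPM (0.75), Arid3a, a DNA-binding protein, at 19.3 and 46.5 CPM (1.27), and Lin28b at 42.5 and 63.1 CPM (0.57), under 1.5-fold. Of 19 imprinted genes 5 were higher and 2 lower. Meg3 and Rian, transcripts of the maternal copy of one imprinted domain, stood at 144 and 275 CPM (0.93) and at 29.2 and 80.0 CPM (1.45), while Dlk1, expressed from the paternal copy there, was lower (−0.84, and −0.56 without cells of 3 or more epicardial, macrophage or megakaryocyte UMIs). Cdkn1c, the most abundant of the cell cycle inhibitors by UMIs here, stood at 4383 and 6385 CPM (0.54, 0.52 to 0.56), just under 1.5-fold.

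Interferon-response and MHC class I genes were lower. Of 9 interferon genes 8 were lower and 0 higher, with a median of −1.50, and all 4 measured MHC class I genes were lower (median −0.89). Isg15, a ubiquitin-like protein, dropped from 26.5 to 3.76 CPM (−2.82, −3.35 to −2.32). Ifi27 dropped from 101 CPM in 481 cells to 18.3 CPM in 123 cells (−2.47), and Bst2, a surface antiviral protein, from 217 to 76.5 CPM (−1.50). H2-D1, an MHC class I heavy chain, stood at 63.3 and 20.3 CPM (−1.64). Cushion cells gave medians of −1.27 and −1.09.

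Some of these lists were also compared in cells with Xist and no Y-linked UMI, which leaves 439 and 651 cells. The list medians were then 0.68 for S phase, −1.66 for interferon response, −0.56 for pan-endothelial and 0.72 for stage genes. Each kept the sign it had over all chamber cells. Some calls of single genes named above ended under another choice of cells. In these cells of 1 sex the ratio of Gucy1a1 was −0.47. With all 6 endothelial genes required, that of Adam10 was −0.56. In cells thinned to 3000 UMIs before the rule, those of Hey1 and Cavin1 were 0.56 and −0.43. Without cells of 5 or more UMIs of another class's markers, the values were 0.44 for Bub1, 0.35 for Rrm2, −0.46 for Plk2, −0.51 for Bik, 0.48 for Itga1 and 0.30 for Wnt5a. All of these kept their direction.

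The 15 genes with the lowest ratios and the 15 with the highest are set out in the plot of their levels. Besides genes named above, the lowest held several of the vessel wall and elastic fibre. Mgp, an inhibitor of calcification and of Bmp, stood at 514 CPM in 767 wildtype-labelled cells and 27.8 CPM in 142 knockout-labelled cells (−4.21, −4.39 to −4.03). In thinned cells its share was 59.0% and 7.5%, beside 11.6% and 0.3% of erythroid cells. Fbln5 and Eln, which build elastic fibres, stood at 54.9 and 0.69 CPM (−6.31) and at 136 and 3.37 CPM (−5.34). Their wildtype-labelled UMIs were concentrated, with 64.1% and 55.5% in 10 cells. Before thinning Fbln5 was seen in 5.1% of wildtype-labelled chamber cells, below the 6.8% of erythroid cells, so its share is at background. The share of Eln, at 15.6% before and 8.69% after thinning, lay near the 13.1% and 5.997% of wildtype-labelled erythroid cells. Smoc1, a matrix protein, stood at 116 and 9.11 CPM (−3.67), Chrm3, a muscarinic receptor, at 273 and 23.9 CPM (−3.51), and Cpe, a peptide-processing enzyme, at 325 and 46.3 CPM (−2.81). All 3 were spread over many wildtype-labelled cells, 496, 506 and 829 of 1013. In cushion cells Mgp stood at 515 and 23.2 CPM and Chrm3 at 162 and 18.8 CPM. Pgm5, Col14a1, Nts, Kcnc2, Mfap5 and Pcdh9 had ratios from −5.15 to −2.71, and Fabp4, which the rule uses, had −5.91. Of the wildtype-labelled Fabp4 UMIs 84.0% lay in 10 cells. For Pcdh9, a protocadherin, 58.5% and 84.0% of UMIs lay in cells with 5 or more epicardial UMIs, and without cells of 5 or more UMIs of another class's markers its ratio was −0.29.

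**Figure D5:**
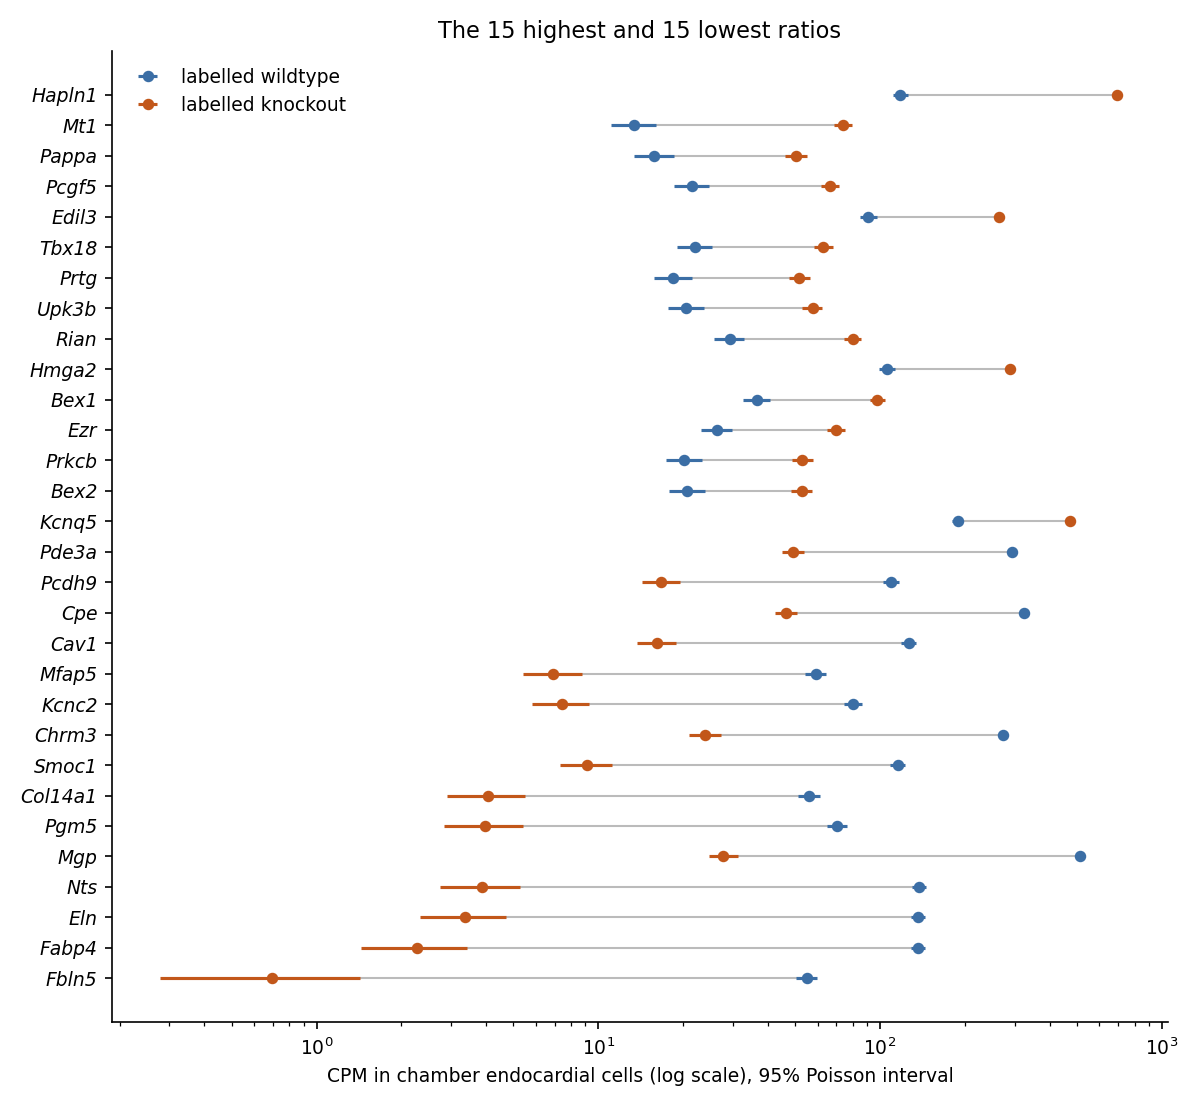
CPM in chamber endocardial cells (x axis, log scale, 95% Poisson interval) of the 15 genes with the highest and the 15 with the lowest ratio (rows) in the libraries labelled wildtype (blue) and knockout (orange). Hapln1 lies highest at 118 and 694 CPM, and Fbln5 lowest at 54.9 and 0.69 CPM.

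The highest after Hapln1 held Pappa, a protease of insulin-like growth factor binding proteins, at 15.8 and 50.4 CPM (1.67), Edil3, a matrix protein of early endothelium, at 90.8 and 265 CPM (1.54), Kcnq5, a potassium channel, at 188 and 474 CPM (1.33), and Prtg, a stage gene, at 18.5 and 51.8 CPM (1.49). Pcgf5, a Polycomb subunit, and Bex1 and Bex2 also belonged to it (1.62, 1.42 and 1.35). Cushion cells had 40.4 and 77.9 CPM of Pappa, 400 and 550 CPM of Edil3 and 152 and 438 CPM of Kcnq5. Mt1, a metallothionein, stood at 13.4 and 73.8 CPM (2.46), with 74.8% of its knockout-labelled UMIs in 10 cells, and free RNA alone could reach 74.1 CPM there.

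Other members of the top 15 were epicardial markers or had many of their UMIs in cells with such markers. Tbx18, a transcription factor of epicardium, stood at 21.99 and 62.9 CPM (1.52) and Upk3b, a surface protein of mesothelium, at 20.6 and 57.6 CPM (1.49). Cells with 5 or more epicardial UMIs held 82.0% and 96.9% of the Tbx18 UMIs, and 94.7% and 94.3% of those of Upk3b. Both genes are on the list that picks these cells, so these shares were in part set by the choice. There were 50 such cells in the library labelled wildtype and 63 in the library labelled knockout, with 11.5% and 18.8% of all chamber UMIs. Their median depth was 14879.5 and 25925 UMIs, beside 7544 and 11653 in the other chamber cells, and Adgrg6 stood in them at 260 and 239 CPM, beside 650 and 481 CPM. Without cells of 3 or more epicardial, macrophage or megakaryocyte UMIs the ratio of Tbx18 was −1.25. Tbx18 itself helped pick the cells left out, so this value is only a description. Ezr and Prkcb, also in the top 15 but not on the epicardial list, had 62.1% and 76.5%, and 41.3% and 74.8%, of their UMIs in the cells with 5 or more epicardial UMIs.

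Markers of other cell types were present in the class. Of 13 epicardial markers 0 were absent in the library labelled wildtype and 1 in the library labelled knockout. Their summed level was 160 and 376 CPM, with a limit for free RNA of 37.1 and 67.1 CPM, and 10 of 11 measured were called higher (median 1.39, and 0.01 without the cells just named). These markers picked the cells left out, so the second median was in part set by the choice. Cardiomyocyte markers summed to 877 and 885 CPM, under the 1133 and 912 CPM that free RNA allows, with none of 18 absent, and 37.5% and 48.0% of cells held 5 or more of their UMIs. Mesenchymal markers summed to 1430 and 1041 CPM with none of 13 absent, above the limits of 162 and 74.8 CPM, and 61.0% and 77.8% of cells held 5 or more. These shares of cells were counted without thinning and depend on depth, which was greater in the library labelled knockout. Erythroid markers summed to 11477 and 5631 CPM, and the limit for free RNA was set from their hemoglobin genes. Macrophage markers summed to 119 and 31.9 CPM, with C1qa absent in the library labelled knockout, and megakaryocyte markers to 164 and 211 CPM. Vascular endothelial markers summed to 1990 and 1266 CPM. Of 14 measured, 9 were lower and 1 higher (median −0.85), with Fabp4 and Tcf15 from the rule among the lower. What part these cells and this RNA have in the other differences was not tested, beyond the values given without them.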

How the data were processed

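The deposited matrices hold raw UMI counts per gene and barcode, for all barcodes. The submitters' processing notes name Cell Ranger 7.1.0 and the mm10 genome. Which gene annotation and cell filters the authors used was not given in the sources used here. The members, the 42 gene lists and the comparisons were chosen with earlier results of these data known. Counts were summed per library and class and scaled to CPM, with exact Poisson intervals, exact conditional binomial intervals for ratios and Clopper-Pearson intervals for shares, for counting error only (Python 3.11.15, numpy 2.4.6, scipy 1.17.1, pandas 2.3.3, matplotlib 3.10.9). The calculation was tested on simulated data. Library totals were 122834180 and 130039314 UMIs. No doublet caller was run, and alternatives remove cells with markers of other classes. Chromosomes came from GENCODE vM21, which matched 32235 of 32285 genes.

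Besides list members, the text names the 15 highest and the 15 lowest ratios among genes with at least 200 UMIs and 50 CPM in the higher library. It also names the 12 genes highest in chamber over both cushion and vascular cells. Mitochondrial, ribosomal protein, hemoglobin, Y-linked and unnamed genes, Xist and Tsix were left out of these. Other X-linked genes were kept, and Bex1 and Bex2 are among them. Other classes of the series were not analysed here beyond the values given beside the results.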

Additional observations from a re-analysis of the deposited data

Results flagged for a closer look

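The median log2 ratio of the macrophage markers had opposite signs in the chamber and cushion classes. Over Fcer1g and Cx3cr1, the 2 markers with enough UMIs in both classes, it was −1.09 in chamber cells and 1.09 in cushion cells. Fcer1g, an Fc receptor chain of myeloid cells, went from 18.4 to 7.52 CPM in chamber cells but had 3 and 47 UMIs in cushion cells (cushion log2 ratio 3.35). Cx3cr1, a chemokine receptor of macrophages, stood at 32.5 and 17.6 CPM in chamber cells and at 19.5 and 8.75 CPM in cushion cells, lower in both classes, so the opposite sign rests on Fcer1g. Cells with 5 or more macrophage UMIs were 12 of the wildtype-labelled and 8 of the knockout-labelled chamber cells (1.18% and 1.19%). The difference between the classes was not tested.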

How the results depend on the processing

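Of the list medians under 14 alternatives, 493 values stayed within the counting interval of the main value, 77 moved outside it and 4 reversed. For single genes named in the text these numbers were 1130, 340 and 6. The interval of a list runs from the median of its genes' lower bounds to that of their upper bounds. Only values past 1.5-fold in the main setting could count as reversed, so sign changes of smaller values are among the other counts. The cardiomyocyte median, for example, ran from −0.73 to 2.02, and that of regulators of the change to mesenchyme from −0.15 to 0.44. Genes higher and lower past 1.5-fold (703 and 1401) numbered 322 and 732 when cells were thinned to 3000 UMIs before the rule, 304 and 897 without cells of 5 or more UMIs of another class's markers, 1172 and 2566 with a minimum of 20 UMIs, 3609 and 5817 with a minimum of 1 UMI, and 176 and 521 past 2-fold. The thinned rule kept 340 knockout-labelled cells, and chamber cells were then 80.8% and 87.4% of endothelial cells. All 6 endothelial genes gave 542 and 425 cells (82.0% and 90.8%), and a chamber sum 2 times the cushion sum gave 64.4% and 63.9%. Bub1b was at −0.080 thinned and 0.84 without the 10% of cells with most UMIs, where the checkpoint and G2/M medians were 0.93 and 0.97. Without cells of 5 or more UMIs of another class's markers the pan-endothelial median was −0.24 and that of S phase 0.34, and Erbb4 was at −0.59 and Pf4 at −0.55. Pf4 was at −0.21 with all 6 endothelial genes and at −0.60 without cells of 3 or more epicardial, macrophage or megakaryocyte UMIs, where Erbb4 was at −0.39 and Tbx18 at −1.25. Pf4 and Tbx18 are themselves among the markers that pick the cells left out by such UMIs. The megakaryocyte median (−0.68) was 0.25 thinned, 1.73 with hemoglobin under 2%, 0.31 without the 10% of cells with most UMIs and 2.48 in cells with Xist and no Y-linked UMI. The autosome ratio was 0.95 thinned, 1.35 without the 5 genes with most UMIs on each autosome and 0.97 with both. The cause of these shifts was not tested. Alternatives chosen after seeing the data are those on Xist, on 3 or more UMIs of other markers and on the autosomes with both changes. Genes with 0 UMIs left in a library gave no value. No paired analysis was possible because each group is 1 library.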

Other observations

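Nppa, the atrial natriuretic peptide gene of cardiomyocytes, stood at 56.3 and 10.6 CPM in chamber cells, below the 103 and 23.5 CPM that free RNA allows in the libraries labelled wildtype and knockout. Stab2, a hyaluronan scavenger receptor of liver and other sinusoids, stood at 1.10 and 13.4 CPM, and 94.8% of its knockout-labelled UMIs lay in 10 of the 17 chamber cells that carried it. Rb1, the retinoblastoma gene, was lower at 44.4 and 24.1 CPM (log2 ratio −0.88, and −0.18 without cells of 5 or more UMIs of another class's markers), 1 of 3 called lower among 8 cell cycle inhibitors and pocket proteins. Of 17 immediate early genes, which respond to tissue handling, 2 were higher (11.8%, beside 6.59% of all genes) and 0 lower.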
